A study of Homo sapiens with 4 samples.

Results

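The p53 response elements (REs) described here lie in or near genes that add phosphate groups to proteins or take them off. They are the REs of the study's list whose labelled biological function names phosphorylation or dephosphorylation, without those of PLK2, PLK3, PPM1D, STK17A and TGFA. The rule found 50 REs at 47 genes, of 1356 listed REs in all (3.69%). Of these REs, 36 carried the label protein phosphorylation, 12 protein dephosphorylation, 1 phosphatidylinositol phosphorylation (PI4K2A) and 1 peptidyl-histidine dephosphorylation (PHPT1). The label is wider than the enzymes it names: it also takes in inactive kinase relatives, scaffolds, regulators, enzymes that act on nucleotides or RNA, and 4 genes set apart here because they fit none of these roles (ETNK1, GRP, PI4K2A and ZMYND8).

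Occupancy was measured by ChIP-seq with the p53 antibody FL393 in H1299, a human lung cancer line that lacks endogenous p53. All cells expressed the Tet repressor and carried a lentiviral, tetracycline (Tet)-inducible gene for wild-type (WT) p53 or its K120R form, which has arginine in place of lysine 120 in the DNA-binding domain. Each form was assayed in untreated cells and after 24 h of Tet, which gave 4 conditions with 1 library each. For the Tet dose, labels and methods both state 1 µg but differ in the volume (µl against ml). Whether each line was a single clone was not given in the sources used here. With no replicates, no test was run, and the form of p53 cannot be told apart from the library that carried it.

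p53 is a transcription factor that binds as a tetramer to a pair of decamers in DNA, and each decamer holds a core of C, A or T, A or T, and G. Protein kinases transfer phosphate from ATP to serine, threonine or tyrosine, and phosphatases reverse the step, so both kinds of enzyme act as switches in growth, stress and cell cycle signalling. p53 is itself phosphorylated by kinases of the stress response, and genes for kinases and phosphatases are among its transcriptional targets. A peak near a gene shows where p53 was bound and not whether the gene responded.

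Sequences are shown for most of the strongest WT peaks with and without a K120R peak, and for a few weaker ones that hold the lowest and highest numbers of G/C base pairs next to the cores or go against them. They are written 5′ to 3′ as listed, with GRCh37 positions, and the capitals mark positions 3, 8, 13 and 18, the bases that adjoin the cores at positions 4 to 7 and 14 to 17. The first group had a peak with both forms of p53 after Tet. The intronic RE of SGK223, the second strongest of all 50, belongs to it with 3 G/C base pairs at these positions, but its sequence is not shown.
AKAP6 (chr14:32814701-32814720, minus strand): agAcatgCccaaAcatgTct
MAP4K4 (chr2:102320676-102320695, plus strand): agGcatgTtcagGcttgTtc
CDK1 (chr10:62520627-62520646, minus strand): gtAcatgCccaaGcataTca
CDC7 (chr1:91995650-91995669, minus strand): acAcaagTccaaAcgtgTtt
PTP4A1 (chr6:64283618-64283637, plus strand): gaAcaagTctagTcttgTcc
EPHA2 (chr1:16479024-16479043, minus strand): ggGcatgTctgaAcaaaTcc
PTPN14 (chr1:214612970-214612989, minus strand): ggAcatgTtgcaAcatgTtt
PI4K2A (chr10:99411675-99411694, plus strand): gaAcatgTccggAcacaTca

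The next group had a peak with WT p53 after Tet and none called with K120R p53.
CAMK2D (chr4:114482487-114482506, plus strand): ggAcatgCctggGcatgCct
KALRN (chr3:124111038-124111057, minus strand): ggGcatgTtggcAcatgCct
PTPRE (chr10:129738268-129738287, minus strand): gtAcctgCctgcAcctgCct
ETNK1 (chr12:22984115-22984134, plus strand): ggGcatgCctggGcaagAcc
BRAF (chr7:140567820-140567839, plus strand): gaAcatgCctggActagTtt
PTPRD (chr9:11100874-11100893, plus strand): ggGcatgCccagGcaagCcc
GRP (chr18:56856469-56856488, plus strand): ggGcatgCccagGcaagCca

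A peak was counted for an RE when it overlapped the RE by at least 1 bp. After Tet, a WT p53 peak covered 50 of the 50 REs, against 98.4% of all listed REs. The study had listed these REs because WT p53 bound them, so that count is a description of the list. A K120R p53 peak covered 18 of the 50 REs after Tet, which is 36% (exact 95% interval 22.9 to 50.8) and stands beside a background of 40% over all listed REs. The interval of the phosphorylation genes holds the background, so their share is not a result about these genes. It also holds the shares of 2 other function groups of the list, 44.3% of 70 REs of transcription regulators and 45.9% of 85 REs of metabolism genes.

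In untreated cells, WT p53 had a peak over 10 of the 50 REs (20%, interval 10.0 to 33.7), with a background of 23.5%. K120R p53 had a peak over 0 of the 50 in untreated cells, which allows a share of up to 7.11%, with a background of 0.0737%. Across the 4 libraries, 29 REs had a peak in 1 library, 14 in 2 and 7 in 3. The same split was not computed over all listed REs, so it is not a result about these genes. The 4 ChIP libraries held 33059650 to 34857204 tags and gave 488 (WT untreated), 4326 (WT Tet), 12 (K120R untreated) and 2023 (K120R Tet) peaks. Their fragment lengths were estimated at 64 bp in both untreated libraries, 170 bp in WT Tet and 68 bp in K120R Tet, so peak values were compared within a library and peak calls between libraries. Stricter minimums on the peaks' −log10 q kept the order of the calls. At 5 or more, 49 of the 50 REs had a WT peak after Tet (all listed 97.8%) and 13 a K120R peak (33.3%), and at 10 or more these were 45 (93.4%) and 8 (22.6%). The part of the shorter K120R list and of the fragment lengths in the lower K120R count was not tested.

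Fold enrichment, the fragment pileup at a peak's summit over the local background of the input, ran from 3.60 to 66.5 for WT p53 after Tet, with a median of 11.3 (quartiles 8.60 and 19.4). The median over all listed REs with a peak was 13.7, and by pileup the medians were 58.6 fragments for the phosphorylation genes and 59.1 for all. The 3 highest were at AKAP6, SGK223 and CAMK2D, which held ranks 10, 30 and 38 among all listed REs, and the lowest was at FAM220A. Summits lay close to the REs, at a median of 13 bp from the centre for WT p53 and of 23.5 bp for the 18 K120R peaks. Within 50 bp of the centre were 45 of 50 WT summits and 17 of 18 K120R summits.

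**Figure D1:**
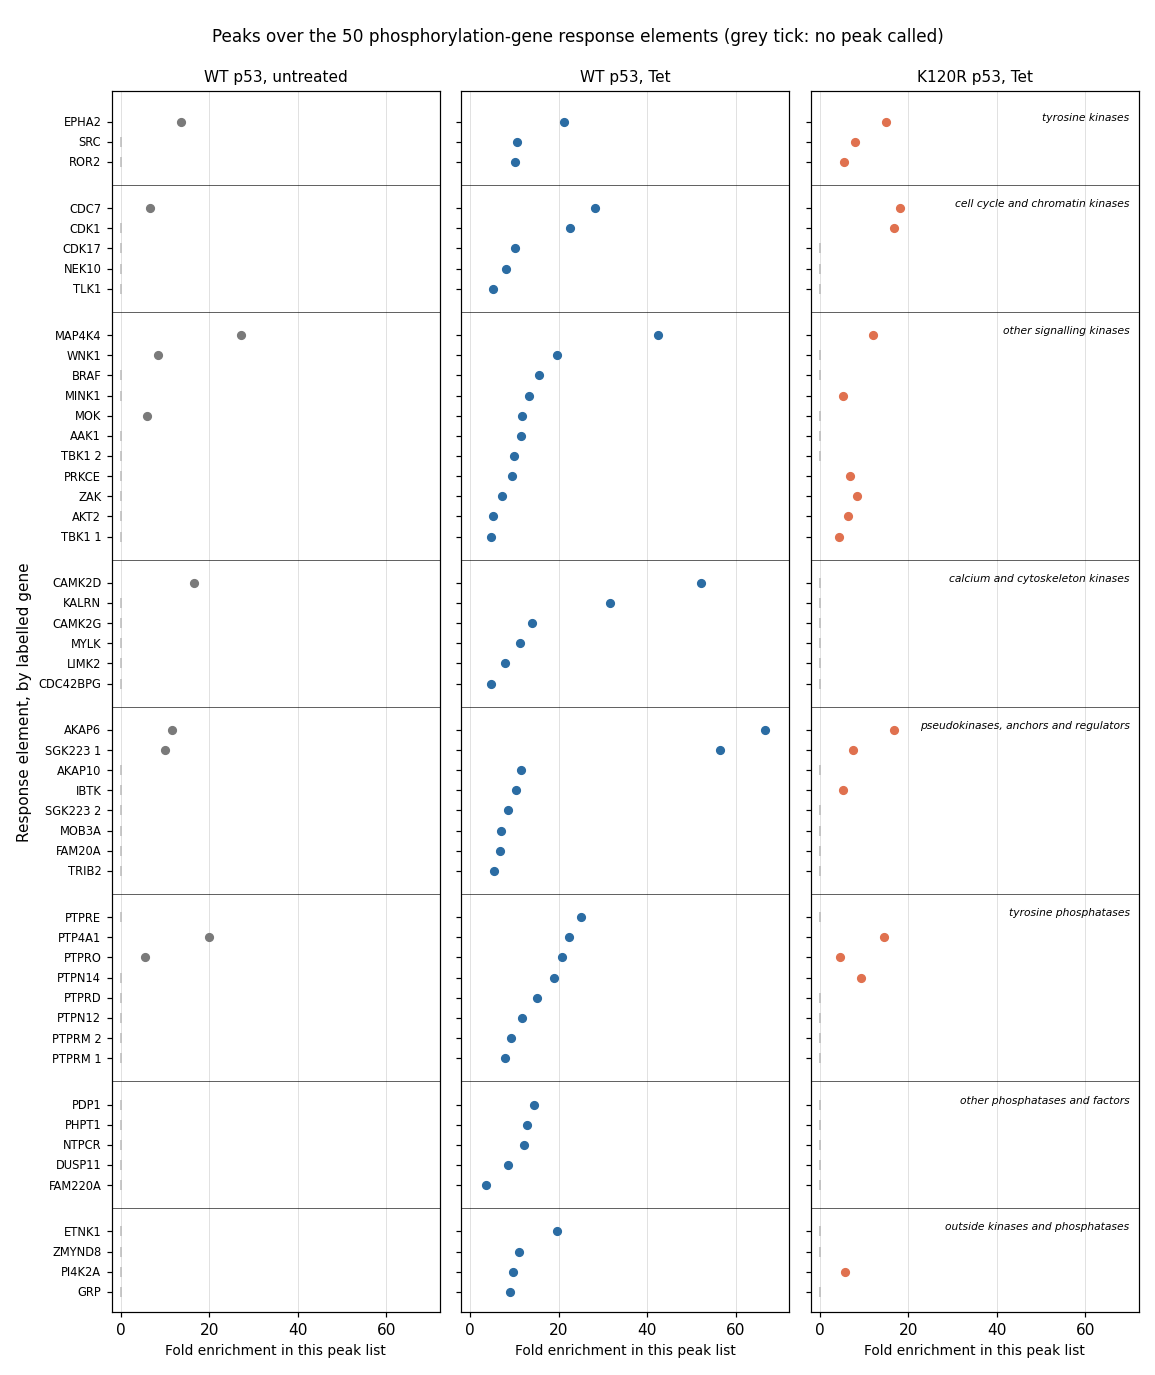
Fold enrichment (x axis, linear) of the peak over each of the 50 REs (y axis, grouped by role of the labelled gene) in 3 libraries, with a grey tick at 0 where no peak was called. Untreated K120R cells are not drawn because they had 0 peaks over these REs; the calcium and cytoskeleton kinases and the other phosphatases have no point in the K120R panel.

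The REs of 3 of 3 tyrosine kinase genes had a peak with K120R p53 after Tet (100%, exact interval 29.2 to 100), an interval that holds the 40% of all listed REs. The RE of EPHA2, a receptor for ephrins, lies in an intron 3.53 kb from the gene start. It had a fold enrichment of 13.6 in untreated WT cells, 21.1 in WT cells with Tet and 14.9 in K120R cells with Tet. The RE of SRC, a cytoplasmic tyrosine kinase that relays adhesion and receptor signals, had no peak in untreated cells and values of 10.6 with WT p53 and 7.96 with K120R p53 after Tet. It is intronic too, 50.4 kb from the start. The RE of ROR2, a receptor for Wnt5a, lies 13.8 kb upstream of the gene and had values of 10.1 and 5.40. ROR2 was 1 of only 2 REs with 3 or 4 G/C base pairs next to the cores that had a K120R peak. That peak was weak, with a −log10 q of 3.57, and would not count at a minimum of 5.

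Among the 5 cell cycle and chromatin kinases, the REs of 2 had a K120R peak. CDC7, the kinase that fires replication origins, had 6.65 in untreated WT cells, 28.1 in WT cells with Tet and 18.2 in K120R cells with Tet, the highest of the 18 K120R values. CDK1, the kinase that drives entry into mitosis, had no peak in untreated cells and had 22.5 with WT and 16.8 with K120R p53. Both REs are intergenic, that of CDC7 29.3 kb beyond the gene start on the downstream side and that of CDK1 17.5 kb upstream. The RE labelled CDK17, a cyclin-dependent kinase of the PCTAIRE type, had 10.2 with WT p53 after Tet and no other peak. It lies 161 kb upstream of CDK17, in an intron of CFAP54. NEK10, a NIMA-related kinase, and TLK1, a tousled-like kinase that acts on histone chaperones, had 7.96 and 5.09 with WT p53 after Tet and no other peak.

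The 11 REs of other signalling kinases had K120R peaks at 6. MAP4K4, a Ste20-type kinase upstream of JNK, had 27.2 in untreated WT cells, the highest value over these REs in that library. Its values after Tet were 42.4 with WT and 12.01 with K120R p53. WNK1, which controls chloride cotransporters, had 8.44 in untreated WT cells and 19.7 with WT p53 after Tet, and no K120R peak over the RE. A K120R peak of 5.63 (chr12:957154-957337) began 20 bp past the end of the WNK1 RE, with its summit 173 bp from the RE's centre. BRAF, the RAF kinase that activates MEK and ERK, had 15.5 with WT p53 after Tet and no peak over this RE in the other libraries, although only 1 of its 4 positions held G/C and it had 0 mismatches to the consensus.

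MINK1, a relative of MAP4K4, had 13.3 with WT and 5.32 with K120R p53 after Tet. MOK, a kinase related to the MAP kinases, had 5.86 in untreated WT cells, 11.8 with WT p53 after Tet and no K120R peak. TBK1, which activates IRF3 in innate immunity, had a pair of REs, 1.06 kb and 70.3 kb from its start. The first, in a TBK1 intron, had 4.66 with WT and 4.38 with K120R p53 after Tet, both near the low end of their lists. The other, in an intron of the neighbouring RASSF3, had 9.85 with WT p53 after Tet and no K120R peak. PRKCE (protein kinase C epsilon), ZAK (the MAP3K of the ribotoxic stress response, MAP3K20 in the annotation) and AKT2 (a kinase of insulin signalling) had WT values of 9.37, 7.06 and 5.10 and K120R values of 6.90, 8.36 and 6.38. AAK1, which phosphorylates a clathrin adaptor, had 11.4 with WT p53 after Tet and no other peak.

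None of the 6 REs of calcium and cytoskeleton kinases had a K120R peak after Tet (0%, exact interval 0 to 45.9), an interval that holds the 40% of all listed REs. The group holds 2 of the 5 strongest WT peaks of the 50 REs. CAMK2D, the delta subunit of calcium/calmodulin-dependent kinase II, had 16.6 in untreated WT cells and 52.2 with WT p53 after Tet. Its RE lies in an intron 201 kb from the gene start and matches the consensus at all positions. KALRN, a guanine nucleotide exchange factor that also holds a kinase domain, had 31.5 and CAMK2G, the gamma subunit, had 14.1 with WT p53 after Tet, with no peak elsewhere. MYLK (myosin light chain kinase), LIMK2 (which phosphorylates cofilin) and CDC42BPG (a CDC42-binding kinase) had 11.1, 7.75 and 4.71. Of these 6 REs, 3 held 3 G/C base pairs next to the cores and 1, that of CDC42BPG, held 1.

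Pseudokinases, anchors and other kinase regulators had 8 REs, 3 of them with a K120R peak. AKAP6, an anchor of protein kinase A, had 11.6 in untreated WT cells, 66.5 with WT p53 after Tet and 16.9 with K120R p53. SGK223, a pseudokinase named PRAG1 in the annotation, had an intronic RE with 9.98, 56.3 and 7.51 in the same order. This RE held 3 G/C base pairs next to the cores. A further RE, 21.0 kb upstream of SGK223, had 8.60 with WT p53 after Tet and no K120R peak although 1 of its 4 positions held G/C, so the calls at the 2 REs of this gene ran opposite to their G/C counts. AKAP10, also a protein kinase A anchor, had 11.5 with WT p53 after Tet and no K120R peak. IBTK, an inhibitor of Bruton's tyrosine kinase, had 10.4 and 5.25. MOB3A (of the MOB kinase coactivators), FAM20A (a pseudokinase partner of the secretory kinase FAM20C) and TRIB2 (a Tribbles pseudokinase) had 6.92, 6.79 and 5.42 with WT p53 after Tet and no other peak.

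Tyrosine phosphatases had 8 REs at 7 genes, and their median WT value, 16.9, was the highest of the 8 role groups. PTPRE, a receptor-type phosphatase, had 25.02 with WT p53 after Tet and no other peak. PTP4A1, a small phosphatase of the PRL family, had 19.8 in untreated WT cells, 22.4 with WT p53 after Tet and 14.6 with K120R p53. PTPRO, another receptor-type phosphatase, had 5.37, 20.6 and 4.50 in that order. At PTPRO the K120R summit lay 83.5 bp from the centre of the RE, the farthest of the 18. PTPN14, a cytoplasmic phosphatase that binds YAP, had 18.9 with WT and 9.28 with K120R p53 after Tet. PTPRD and the 2 REs in introns of PTPRM, both receptor-type, had 14.96, 7.76 and 9.25 with WT p53 after Tet and no K120R peak, and PTPN12, a cytoplasmic phosphatase, had 11.6 and no K120R peak. The peak over the first RE of PTPRM, which has 7 mismatches to the consensus, also covers an unlisted copy of the GRP sequence (chr18:7728510-7728529) and has its summit nearer to that copy than to the RE, 48.5 bp from the RE's centre, so its value cannot be assigned to the RE alone.

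The 5 REs of the other phosphatases and dephosphorylation factors had 0 K120R peaks (exact interval 0 to 52.2, all listed 40%) and 0 peaks in untreated cells (WT over all listed 23.5%), and with so few REs neither count stands apart from its background. WT values after Tet were 14.5 at PDP1, the phosphatase that activates pyruvate dehydrogenase, 12.8 at PHPT1, the phosphohistidine phosphatase, and 12.2 at NTPCR, a nucleoside triphosphatase. DUSP11, which removes phosphates from RNA ends, had 8.60. FAM220A, which binds STAT3 and promotes its dephosphorylation, had 3.60, the lowest of the 50. PHPT1 is the exception in place and form: its RE lies in coding sequence, 0.832 kb from the gene start, and its listed span is 19 bp, so its sequence was not matched to the reference.

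Of the 4 genes with other roles, PI4K2A, a lipid kinase that makes phosphatidylinositol 4-phosphate, had the 1 K120R peak, with 9.64 for WT and 5.74 for K120R p53. ETNK1 (ethanolamine kinase), ZMYND8 (a chromatin reader) and GRP (gastrin-releasing peptide) had 19.5, 11.1 and 8.97 with WT p53 after Tet and no K120R peak. Joined, the 4 kinase groups had K120R peaks at 11 of 25 REs (44%, interval 24.4 to 65.1) and the joined groups of phosphatases and dephosphorylation factors, which also hold NTPCR, DUSP11 and FAM220A, at 3 of 13 (23.1%, interval 5.04 to 53.8). The exact intervals of these and of each of the 8 role groups hold the 40% of all listed REs, and no difference between these joined groups could be shown with so few REs.

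After Tet, WT values were larger at REs that K120R p53 also covered, with a median of 16.1 (n = 18) against 11.1 (n = 32), a ratio of 1.45. The ranges overlapped from 4.66 to 52.2, and the same medians over all listed REs were 20.3 and 11.5. Of the 11 REs with a WT fold enrichment of at least 20, 8 had a K120R peak (72.7%, all listed 69.2%), and the 3 without were CAMK2D, KALRN and PTPRE. Of all 44 listed REs with at least 50, only 4 lacked a K120R peak, and CAMK2D was 1 of them. Of the 12 REs under 8, 3 had a K120R peak (25%, all listed 15.5%), those of ZAK, AKT2 and the first RE of TBK1.

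The number of G or C base pairs at positions 3, 8, 13 and 18 separated the calls further. The study chose these positions on the same libraries, so the counts are no independent evidence of the pattern. A K120R peak was called at 6 of 6 REs with 0 G/C base pairs (all listed 77.4%), 6 of 13 with 1 (55.1%), 4 of 14 with 2 (33.8%), 2 of 14 with 3 (18%) and 0 of 3 with 4 (13.8%). The 6 REs with 0 were those of CDC7, MINK1, IBTK, PTP4A1, PTPN14 and PI4K2A, and their WT values after Tet ran from 9.64 to 28.1. The K120R peaks of MINK1, IBTK and PI4K2A were weak, with a −log10 q of 4.27, 4.18 and 4.69, so at a minimum of 5 the count in this class fell to 3 of 6. REs with 0 or 1 had a share of 63.2% (12 of 19) and REs with 3 or 4 a share of 11.8% (2 of 17). The difference of 51.4 percentage points had a Newcombe interval of 19.8 to 71.0 over REs, and all listed REs gave 62% and 17.2%. At a minimum −log10 q of 5 the difference was 41.5 percentage points. The medians of WT fold enrichment after Tet were 16.1 at 0 G/C base pairs, 9.37 at 1, 10.6 at 2, 11.6 at 3 and 9.25 at 4. So among the 50, the class with 0, in which 3 of the 6 K120R calls were weak, also had the highest WT median. Over all listed REs the medians were 14.0, 13.9, 14.3, 12.8 and 11.4 in the same order, and the class with 0 was not the highest. The part of WT occupancy in the K120R calls of the class with 0 was not tested.

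**Figure D2:**
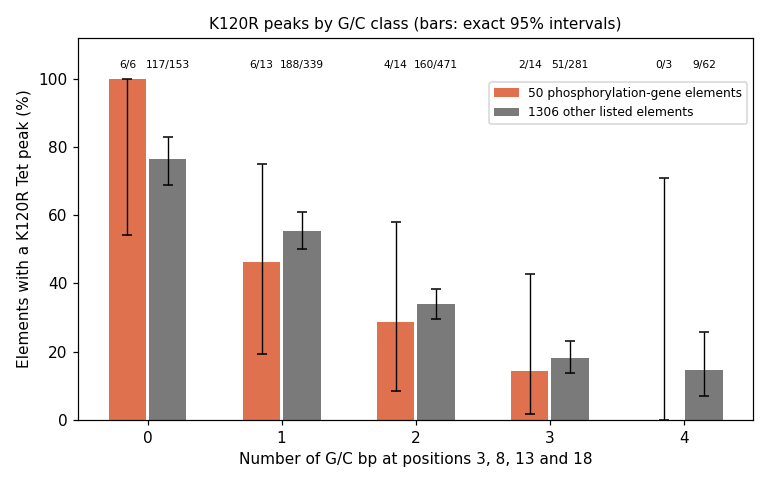
Share of REs with a K120R peak after Tet (y axis, percent) by the number of G/C base pairs at positions 3, 8, 13 and 18 (x axis), for the 50 phosphorylation-gene REs and the 1306 other listed REs, with exact 95% intervals and the counts above. The share falls from 6 of 6 to 0 of 3 in the phosphorylation-gene REs, whose intervals are wide.

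The 9 exceptions show how far the count goes. A set of 7 REs had 0 or 1 G/C base pair and no K120R peak, those of BRAF, CDC42BPG, MOB3A, TRIB2, NTPCR, DUSP11 and the upstream RE of SGK223, each with 1. All of these had WT values of 15.5 or less after Tet. The REs of ROR2 and, in its intron, SGK223 had 3 and a K120R peak, and SGK223 had the second highest WT value of the 50. The K120R peak of ROR2 was weak (−log10 q 3.57) and falls away at a minimum of 5. The plot of WT values against the G/C count shows both groups.

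**Figure D3:**
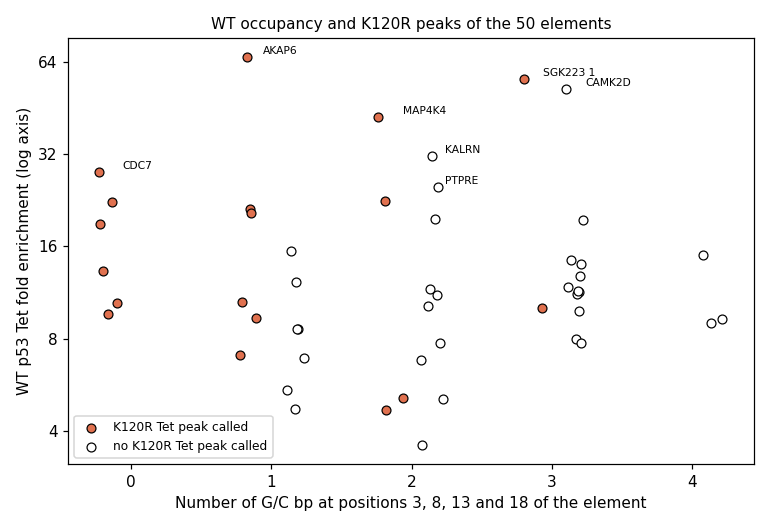
WT p53 fold enrichment after Tet (y axis, log scale) against the number of G/C base pairs at positions 3, 8, 13 and 18 (x axis, points spread sideways), 1 point per RE, filled where a K120R peak was called. All 6 points at 0 are filled, while CAMK2D, KALRN and PTPRE are open points at high WT values.

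By position in the listed orientation, the calls parted most at position 8, which held G or C in 2 of 18 REs with a K120R peak and in 22 of 32 without. The counts were 4 of 18 and 17 of 32 at position 3, and 5 of 18 and 19 of 32 at position 18. Position 13 hardly differed, with 9 of 18 and 17 of 32. Outside these positions, position 12, between the cores, held G or C in 6 of 18 and 23 of 32. The consensus reads the same on both strands, so position 8 becomes 13, 3 becomes 18 and 12 becomes 9 on the other strand. The listed sequences matched the plus strand at 21 REs and the minus strand at 28, so these contrasts depend on the listed strand. They were not computed over all listed REs. The median number of mismatches to the consensus was 2 in both groups. Among the 7 REs with 0 mismatches (those of AKAP6, MAP4K4, BRAF, CAMK2D, FAM20A, PTPRD and the second of PTPRM), 2 had a K120R peak, and among the 9 with at least 4, 3 had one. With 40% over all listed REs, neither count is a result about these REs.

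**Figure D4:**
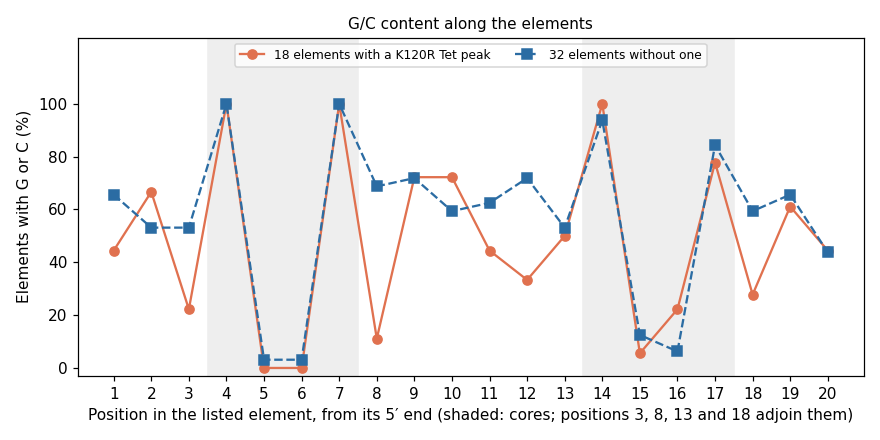
Share of REs with G or C (y axis, percent) at each position of the listed sequence (x axis), for the 18 REs with a K120R peak after Tet and the 32 without; shading marks the cores. The lines part most at position 8 and run close together at position 13, positions that swap when an RE is read on the other strand.

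Peaks in untreated WT cells lay more often at REs with high WT values after Tet. The 10 REs were those of EPHA2, CDC7, MAP4K4, WNK1, MOK, CAMK2D, AKAP6, SGK223 (intronic), PTP4A1 and PTPRO, with values in that library of 5.37 to 27.2 (median 10.8, all listed 8.38). Their median WT value after Tet was 25.2, against 10.1 for the other 40. The ranges overlapped, with 11.8 (MOK) to 66.5 for the 10 and 3.60 to 31.5 (KALRN) for the other 40. Of the 10, 7 had a K120R peak after Tet (70%, all listed 65.4%), and the 3 without were WNK1, MOK and CAMK2D.

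Some REs shared their whole sequence. WNK1, CDK17 and KALRN, on chromosomes 12 and 3, held the same 20 bp, and PTPRD and the second RE of PTPRM held another. The RE of GRP differs from the latter by A20C, with positions counted from the 5′ end and the base of GRP first. None of these 6 REs had a K120R peak, beside 40% of all listed REs. They were picked because they share sequence and are not 6 independent sites, so the count is not a result about them. The REs of PTPRD, PTPRM and GRP are shown with 20 bp on either side, the RE in capitals, because the flanks tell whether the stretch of likeness ends with the RE. On GRCh37 the REs not placed above lie at chr12:96955705-96955724 (CDK17, minus strand), chr12:957115-957134 (WNK1, minus strand), chr14:102657195-102657214 (MOK, minus strand) and chr18:7733851-7733870 (PTPRM 2, plus strand).
PTPRD: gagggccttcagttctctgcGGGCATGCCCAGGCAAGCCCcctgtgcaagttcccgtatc
PTPRM 2: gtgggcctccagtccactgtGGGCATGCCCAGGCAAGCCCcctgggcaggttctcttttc
GRP: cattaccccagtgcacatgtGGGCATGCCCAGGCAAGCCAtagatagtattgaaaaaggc

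For most of these pairs the likeness ran past the REs, but not for GRP. Over the 200 bp of flanks, PTPRD and the second RE of PTPRM were 79% identical, CDK17 and KALRN 54%, CDK17 and WNK1 52.5%, and KALRN and WNK1 39.5%. Bases were compared position by position without gaps, so a base gained or lost in a flank lowers these figures. Related flanks can therefore be more alike than the figures show. GRP was 22% identical to each of PTPRD and the second RE of PTPRM, no more than to CDK17 (26.5%), whose RE is a different sequence. Exact copies of 4 sequences were then counted on the 24 chromosomes of GRCh37, a search chosen after the values had been seen. Repeat annotation was not used here.

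The WNK1, CDK17 and KALRN sequence occurred 78 times, on 23 chromosomes. A WT peak covered 70 of the 78 copies after Tet (89.7%, interval 80.8 to 95.5), with fold enrichments of 5.62 to 50.9 and a median of 14.0. A K120R peak covered 1 of these 70 (1.43%, interval 0.036 to 7.70), a listed RE of KDM4C with the highest WT value of the copies. The other listed REs with a WT peak and the same 2 G/C base pairs had a K120R peak 163 times out of 460 (35.4%, interval 31.1 to 40.0), and their median WT value was 14.0 as well. Of the 18 copies that are listed, 18 had a WT peak and 1 a K120R peak. The 60 copies that are not on the study's list, and so were not selected for binding, had 52 WT peaks and 0 K120R peaks. Of all 4326 WT peaks after Tet, listed or not, 25.2% overlapped a K120R peak. The intervals count each copy as an independent site, although flanks of the copies were also alike (median 65.5% identity to the commonest bases). Untreated WT cells had a peak over 12 of the 78.

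The MOK sequence occurred 87 times, with a WT peak over 69 copies and a K120R peak over 3 of these (4.35%, interval 0.906 to 12.2). Split by the list, K120R peaks covered 2 of the 9 listed copies, those of CD46 and SGPP1, and 1 of the 60 unlisted copies with a WT peak (25.2% over all WT peaks). The K120R share of other listed REs with a WT peak and 3 G/C base pairs was 51 of 280 (18.2%), and their median WT value was 12.8. WT values at the MOK copies had a median of 8.61 (range 3.15 to 26.4). The PTPRD sequence occurred 7 times and that of GRP 5 times, each copy with a WT peak, 1 of the GRP copies sharing it with the first RE of PTPRM, and none with a K120R peak. These counts of 0 allow K120R shares of up to 41.0% and 52.2%. The other listed REs with a WT peak and 4 G/C base pairs had 9 of 58 (15.5%) and 9 of 60 (15%), so neither count stands apart. Only uniquely aligned reads were kept by the authors, so copies whose surroundings are alike over a read length of 75 bp would lose reads in every library. The part of this in the copies without a peak was not tested.

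**Figure D5:**
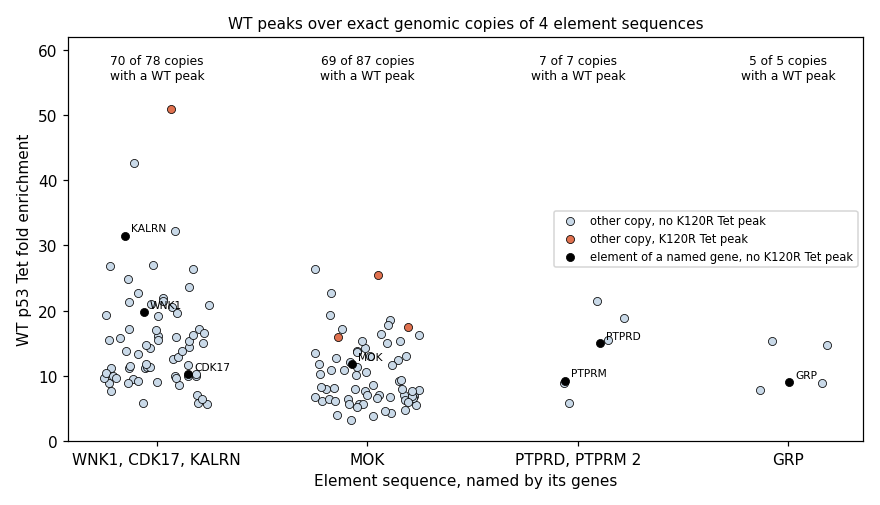
WT p53 fold enrichment after Tet (y axis) at each exact copy with a WT peak, by RE sequence (x axis, points spread sideways), with copies that also had a K120R peak filled in orange and the REs of named genes in black. Copies with a WT peak number 70 of 78, 69 of 87, 7 of 7 and 5 of 5, and orange points are 1, 3, 0 and 0.

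Most REs lay far from promoters. In GENCODE release 44, 30 of the 50 REs were inside the gene they are labelled with, 29 of them in introns and that of PHPT1 in coding sequence. A further 13 were upstream and 7 downstream of it. Of these 20, 13 were intergenic and 7 lay inside another annotated gene, as at CDK17, MOK and the RASSF3 RE of TBK1. The median distance from the gene start was 37.4 kb (range 0.832 to 488 kb, the farthest at PTPRD), with 6 within 5 kb and 16 beyond 100 kb.

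For the 32 REs without a K120R peak, the nearest K120R peak lay at a median of 404 kb, and WNK1 alone had one within 1 kb. Peaks away from any listed RE were few within the bodies of the 47 genes. WT p53 had 7 such peaks after Tet, in NEK10, CAMK2D, LIMK2, PTPRD, PTPRM and ZMYND8, and the highest value in each gene ran from 3.49 to 7.01. K120R p53 had 5, with 5.17 at BRAF, 8.44 at ETNK1, 5.68 at MAP4K4, 6.63 at PRKCE and 5.63 at WNK1. So BRAF and WNK1, whose intronic REs had no K120R peak, each had a K120R peak elsewhere in the gene, that of WNK1 being the one beside its RE. ETNK1 had a K120R peak in the gene although its listed RE, 206 kb from the gene start and outside the gene, had none. In untreated cells, WT p53 had 1, in PHPT1, and K120R p53 had 0.

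Some genes of the same list belong to phosphorylation signalling but carry different function labels. A set of 23 with 24 REs was read the same way: kinases and phosphatases, and also regulatory subunits, partners and inhibitors (PRKAG2, PPP2R3A, SMEK1, IGBP1, PHACTR4 and PPP1R14C) and the inactive phosphatase relatives SBF1 and SBF2. WT p53 had a peak over 24 of 24 after Tet (6.55 to 66.2, median 13.1) and over 10 of 24 in untreated cells (all listed 23.5%). K120R p53 had a peak over 15 of 24 after Tet (62.5%, interval 40.6 to 81.2), beside 40% of all listed REs and 36% of the phosphorylation-labelled REs. The interval starts just above the 40% and overlaps that of the phosphorylation-labelled REs. These genes were picked with earlier results of these data known, so the share is not a result about them. Among them, MAP2K6, an activator of p38, had 54.4 with WT and 13.9 with K120R p53, and ATM, the kinase of the DNA break response, had 17.4 and 15.9. MAST2 and PTK2 (focal adhesion kinase) hold the WNK1 sequence, had WT values of 42.6 and 26.9 and had no K120R peak. REs with 0 or 1 G/C base pair had a K120R peak in 9 of 10 cases (all listed 62%) and those with 3 or 4 in 2 of 3 (all listed 17.2%).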

How the data were processed

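ChIP-seq of p53 was read from 4 H1299 libraries, 1 per condition, grouped by their labels. The authors aligned unique 75-bp reads to GRCh37 (hg19) with BWA-MEM. MACS 2.1.1.20160309 then compared each ChIP library with the matching input, with 1 tag kept per position, a q-value cutoff of 0.05 and the larger of ChIP and input scaled to the smaller. The deposited pileup is a signal height in fragments, and the deposited fold enrichment is a ratio of pileup to local background. The authors deposited p-values and q-values as −log10. Peak lists of other formats repeat these peaks and were not used here. Depth was 33059650 to 34857204 ChIP tags, and an RE without a peak had none above the cutoff at that depth.

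REs, with positions and sequences, came from the study's source sheet, whose cpm values were not used. G/C base pairs were counted at positions 3, 8, 13 and 18 and mismatches against the p53 consensus. Genes came from GENCODE release 44 on GRCh37. No p-value was computed. Intervals are exact (Clopper-Pearson) or, for a difference, Newcombe, at 95%, and cover counting over REs only, which are not replicates. The members, role groups and lists were chosen with earlier results of these data known. Values are given for the 3 strongest WT REs of each role group, for genes with several REs, for shared sequences and for REs whose K120R call goes against the majority of their G/C class, and the other REs are given with fewer values. The overlap step recovered 100% of planted peaks in 20 simulations over 1356 REs. Alternatives changed the q-value or fold enrichment minimum, the overlap rule, the REs included and the peak measure. Scripts ran in Python 3.11.15 (scipy 1.17.1 for intervals, pandas 2.3.3 and numpy 2.4.6 for tables, pysam 0.24.0 for the genome, matplotlib 3.10.9 for plots). The surroundings of some REs with shared sequences are not reported here.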

Additional observations from a re-analysis of the deposited data

How the results depend on the processing

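Under 12 other settings, 71 of 74 recomputed values moved by less than their interval or factor of 1.5, and none changed direction. A minimum −log10 q of 10 lowered the share of REs with a WT peak after Tet to 90% and that with a K120R peak to 16%, where fewer peaks pass by construction. Pileup in place of fold enrichment gave a median of 58.6, in another unit. Over all settings, the difference between REs with 0 or 1 and with 3 or 4 G/C base pairs ran from 31.6 to 67.3 percentage points and the ratio of WT medians from 1.41 to 2.01. Leaving out REs with further copies in the genome was a setting chosen after seeing the data. No paired analysis was possible because each condition had 1 library, and for the same reason no replicate could be left out. Of the 18 K120R peaks, 5 had a −log10 q under 5, and the effect of depth on calls near the cutoff was not tested.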
